A study of Mus musculus with 6 samples.

Results

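The expression of 35 genes that mark blood vessel lining and liver sinusoids was followed in fetal livers that lack the red cell transcription factor Klf1. The genes were taken from a list of endothelial and sinusoid symbols, and each was read from its single-gene probe set. All 35 had such a probe set, out of 19937 genes measured. Fetal liver samples on 3 Klf1-/- arrays were compared with those on 3 wildtype arrays, all of strain FVB/NJ at embryonic day 13.5 and all obtained by timed mating of Klf1 +/- parents. Whole livers were dissociated before RNA extraction and no cell type was selected, and the arrays are one-colour Affymetrix arrays. Which part of Klf1 was deleted is not given in the labels, and nothing is stated on litters or on whether livers were pooled, so each array is counted as 1 liver sample. Replicates are numbered 1 to 3 in both genotypes.

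Fetal liver sinusoids are wide, thin-walled capillaries in which blood cells mature and through which they leave. Their endothelium depends on vascular endothelial growth factor (VEGF), which signals through Kdr, and on angiopoietins, which signal through Tek; Flt1 binds VEGF tightly and its soluble form acts as a decoy. Liver sinusoidal cells are also scavengers and carry receptors such as Stab1, Stab2, Lyve1 and Fcgr2b that take up matrix fragments and immune complexes from blood.

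Levels are log2 of the deposited intensities, and changes are Klf1-/- minus wildtype, with ± giving the standard error from limma. A gene was called, and is said to have risen or fallen, at a Benjamini-Hochberg adjusted p under 0.05 over all 19937 genes. The median intensity was 104.9 to 108.6 on the Klf1-/- arrays and 104.5 to 109.8 on the wildtype arrays. Klf1 itself fell by 1.46 on the log2 scale (limma adjusted p = 3.72e-06). The hepatoblast markers Alb and Afp, named to check the tissue, read 13.22 to 14.03 on all arrays, and 34 of the 35 endothelial genes lay above the lower quartile of all genes on every array. Bmx, a kinase of arterial endothelium, was the exception, at 4.29 to 4.44. The number of arrays limits the precision of every value.

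Most endothelial and sinusoid genes were not called different between the genotypes. Of the 35, 5 rose in Klf1-/- livers (Flt1, Icam2, Egfl7, Pecam1 and Fcgr2b), 0 fell and 30 were not called. Over all genes 19.1% were called, 10.8% higher and 8.26% lower, or 7.89% and 12.3% after centring each array on its 75th percentile. The median change of the 35 was 0.03, against -0.02 over all genes, and it was -0.04 with 75th percentile centring and between -0.03 and 0.14 with any 1 array left out. The changes ran from -0.48 for Lyve1 to 0.51 for Flt1, all under 1.5-fold as point values. The 95% intervals of uncalled genes reached further, as to 1.665-fold for Emcn and 0.56-fold for Lyve1. In whole livers a change in the number of endothelial cells and a change in RNA per cell cannot be told apart.

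**Figure D1:**
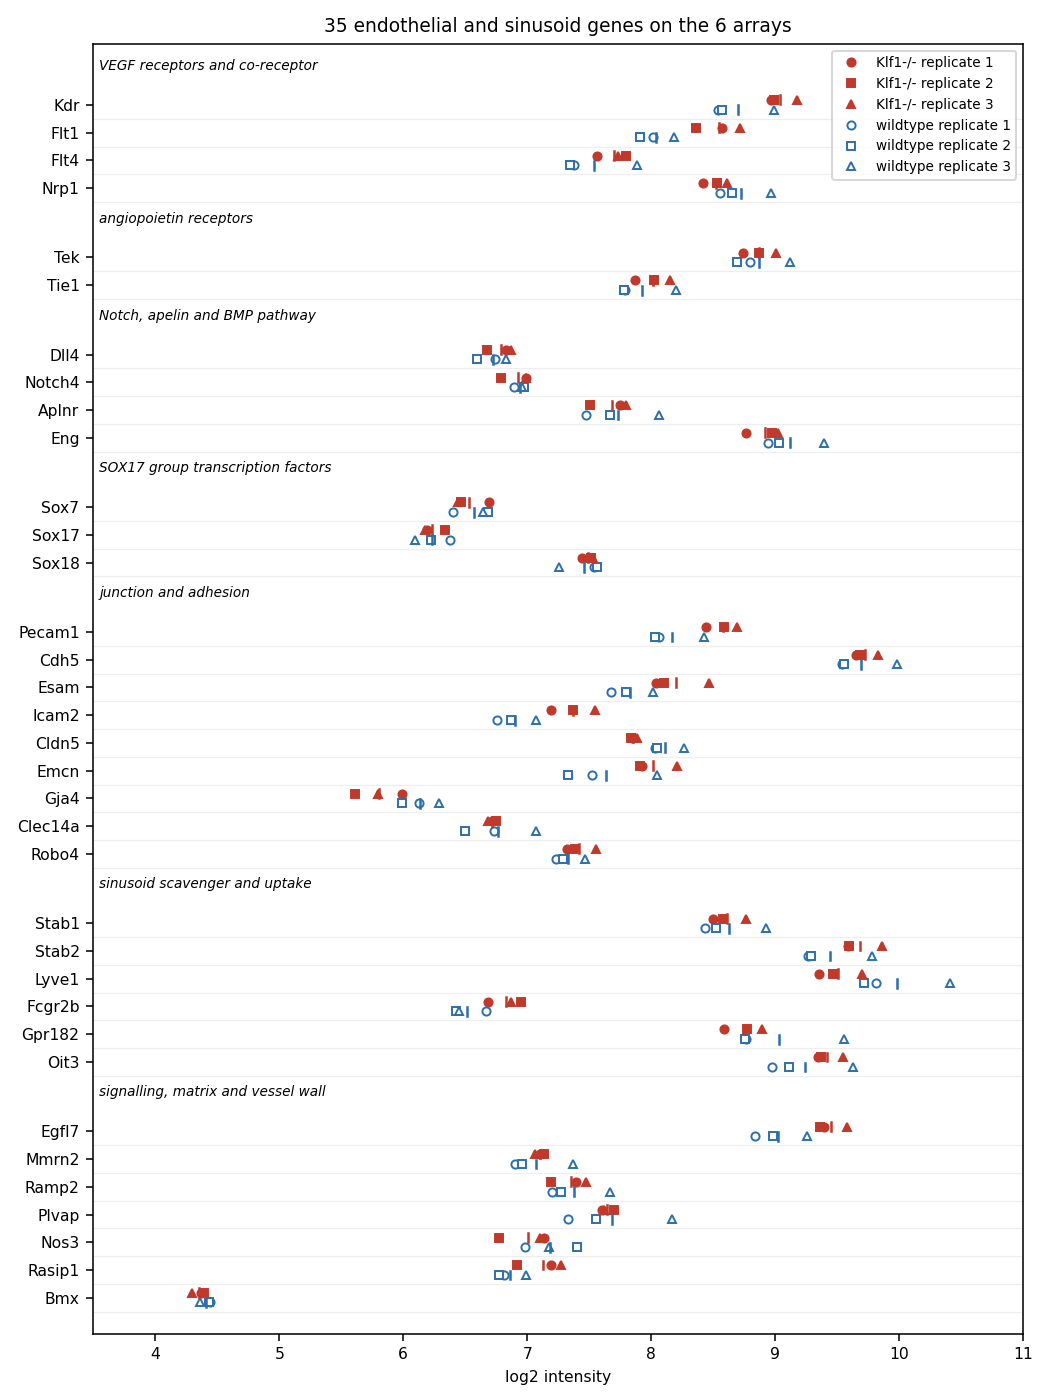
Log2 intensity of each of the 35 genes on each array, grouped by role. Filled red symbols above are Klf1-/- livers, open blue symbols below are wildtype livers, and short vertical lines are the group means; wildtype replicate 3, the open triangle, is the highest of its group for 28 of the 35 genes.

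One wildtype liver stood apart in these genes. Wildtype replicate 3 was the highest wildtype liver for 28 of the 35 genes, where it was highest for 31.2% of all genes. Klf1-/- replicate 3 was the highest of its own group for 25 of them, against 34.4% of all genes. Averaged over the 35 genes, the deviation from each gene's mean was -0.02, -0.01 and 0.12 in the Klf1-/- livers, against -0.15, -0.13 and 0.18 in the wildtype livers. The wildtype livers thus held both the lowest and the highest levels, and the Klf1-/- livers lay between them. The median spread within wildtype was 0.22 for these genes and 0.11 for all genes (SD on the log2 scale, n = 3). Markers of macrophages, stellate cells and hepatoblasts were also highest in wildtype replicate 3, with mean deviations of 0.38, 0.34 and 0.14, and their part in the endothelial levels was not tested. Without wildtype replicate 3 the fit called 10 of the 35 genes higher and 0 lower, where 8.88% of all genes were called higher and 7% lower, and the median change was 0.14. Kdr, Flt4, Esam, Emcn, Stab2 and Oit3 joined the calls in that fit and Fcgr2b left them. Wildtype replicate 3 was singled out by its high level in these same genes. Leaving it out therefore favours higher calls, and the gained calls are a description only. Without Klf1-/- replicate 3, 1 of the 35 was called higher, Flt1, and 0 lower. Of all genes 6.96% were called higher and 5.15% lower without that liver. Over all fits that left out 1 array Kdr ran from 0.26 to 0.49, Esam from 0.24 to 0.46 and Emcn from 0.23 to 0.59, with the highest value of each without wildtype replicate 3. Flt4 ran from 0.06 to 0.33, Stab2 from 0.14 to 0.40 and Oit3 from 0.05 to 0.38 in the same fits.

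**Figure D2:**
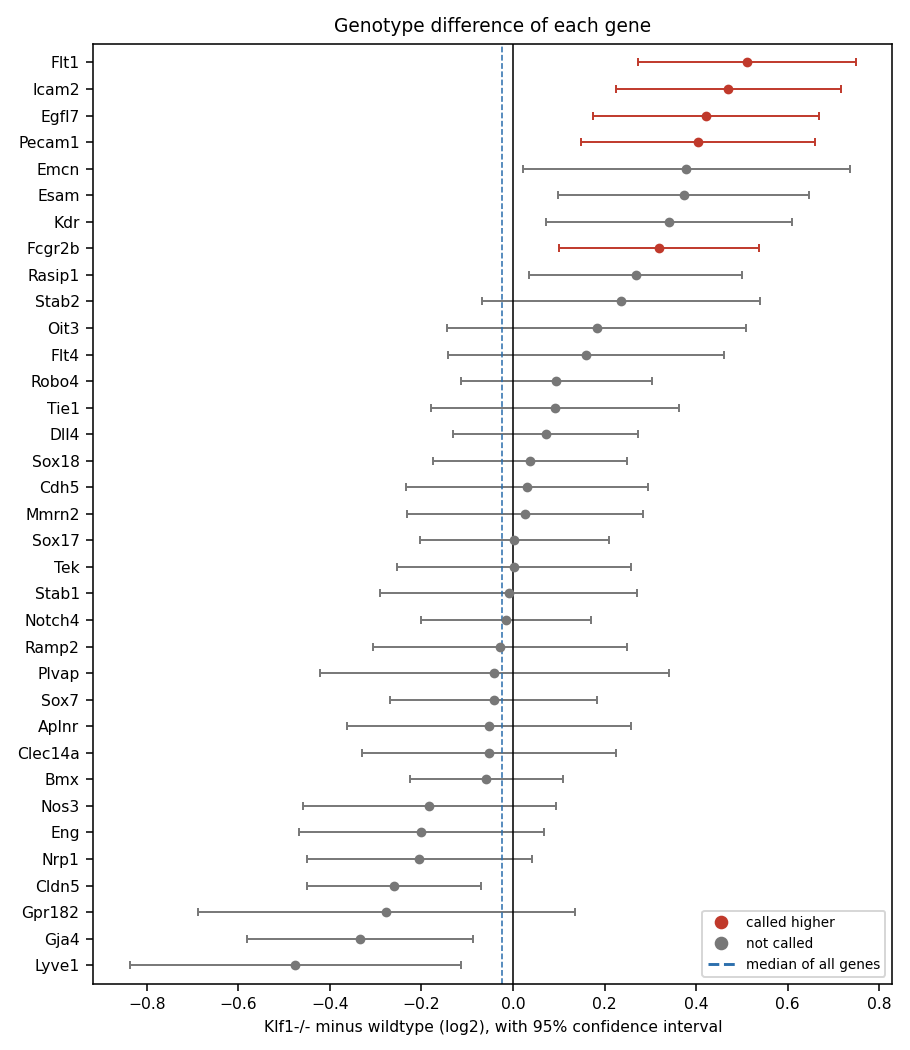
Klf1-/- minus wildtype (log2) of each gene with the 95% confidence interval of the limma fit, ordered by size. Red points are the 5 genes called higher, grey points the 30 not called, and the dashed line is the median of all genes at -0.02.

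Among the receptors for VEGF, Flt1 rose. It read 8.57, 8.36 and 8.72 in the Klf1-/- livers, against 8.02, 7.91 and 8.18 in the wildtype livers. Every Klf1-/- value lay above every wildtype value, and the change was 0.51 ± 0.11, or 1.43-fold (limma adjusted p = 0.0074). Flt1 was the one gene of the 35 called with each array left out in turn, at adjusted p of 0.00429 to 0.0354.

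Kdr, the main signalling receptor, read 8.96, 8.99 and 9.17 in the Klf1-/- livers, against 8.54, 8.57 and 8.99 in the wildtype livers. The groups overlapped through wildtype replicate 3 alone, and the change of 0.34 ± 0.12 was not called (limma adjusted p = 0.0763). Kdr was called in 4 of 21 alternatives, among them the fit without that liver, at 0.49. Flt4, the receptor of lymphatic and early vessels, gave 0.16 ± 0.14 and was not called, with groups that overlapped. Without wildtype replicate 3 Flt4 was at 0.33. That liver was singled out by its high level in these same genes, so calls gained without it are a description only. Nrp1, a co-receptor that binds VEGF and semaphorins, had a negative value of -0.20 ± 0.11, also not called.

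To show the regulatory sequence beside the called receptor and its uncalled relatives, the 250 bases before the RefSeq gene start (GRCm38.p6) are given 5′ to 3′ on the gene's strand. Capitals mark GGAAG, the core of the motif of ETS factors, which are common regulators of endothelial genes, and CCNCNCCC, a motif of Krüppel-like factors such as Klf1, on either strand.
Flt1, chr5:147726012-147726261, minus strand: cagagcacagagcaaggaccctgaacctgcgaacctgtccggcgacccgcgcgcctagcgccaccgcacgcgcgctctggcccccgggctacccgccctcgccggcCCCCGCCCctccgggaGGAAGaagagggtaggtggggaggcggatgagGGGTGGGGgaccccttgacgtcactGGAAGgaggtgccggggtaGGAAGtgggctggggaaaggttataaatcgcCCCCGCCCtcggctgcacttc
Kdr, chr5:75978456-75978705, minus strand: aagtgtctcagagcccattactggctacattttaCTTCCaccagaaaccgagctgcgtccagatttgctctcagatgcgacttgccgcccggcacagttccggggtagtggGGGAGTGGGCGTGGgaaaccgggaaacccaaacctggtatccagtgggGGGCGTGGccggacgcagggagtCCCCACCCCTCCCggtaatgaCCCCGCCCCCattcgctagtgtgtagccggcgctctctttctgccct
Flt4, chr11:49609429-49609678, plus strand: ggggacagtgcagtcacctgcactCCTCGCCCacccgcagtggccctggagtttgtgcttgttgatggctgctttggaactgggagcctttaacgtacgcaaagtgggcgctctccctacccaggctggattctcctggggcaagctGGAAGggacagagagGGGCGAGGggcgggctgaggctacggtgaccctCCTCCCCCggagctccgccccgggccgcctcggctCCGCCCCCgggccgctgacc
Flt1 held 3 matches to GGAAG and 3 to CCNCNCCC, Kdr 1 and 7, and Flt4 1 and 4; matches to CCNCNCCC may overlap each other, and no GGAAG match overlapped one of them. Among 32851 windows of the same length, 64.1% held GGAAG and 45.9% held CCNCNCCC. Of the 35 genes, 20 had windows in the table, 22 in all, and 18 windows held the first motif and 15 the second. A match describes the letters and shows no binding.

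The angiopoietin receptors did not pass the test. Tek, the receptor of the angiopoietins, averaged 8.87 ± 0.13 in the Klf1-/- livers and 8.87 ± 0.22 in the wildtype livers (SD, n = 3 each). The change was 0.00 ± 0.12, and its 95% interval ran from 0.839-fold to 1.2-fold. The related orphan receptor Tie1 gave 0.09 ± 0.12, with an interval of 0.883-fold to 1.29-fold. Both sets of livers overlapped.

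Arterial and signalling genes were likewise not called. Dll4 and Notch4, a ligand and a receptor of arterial Notch signalling, gave 0.07 ± 0.09 and -0.02 ± 0.08. Aplnr, the apelin receptor of venous and sprouting vessels, gave -0.05 ± 0.14, and Eng, a co-receptor for bone morphogenetic proteins, gave -0.20 ± 0.12. Sox7, Sox17 and Sox18, related transcription factors of vessel formation, gave -0.04, 0.00 and 0.04, and their 95% intervals together reached from -0.27 to 0.25. These values set bounds on a change and do not show that the levels were equal.

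Of 9 junction and adhesion genes 2 rose, Pecam1 and Icam2, and 7 were not called. The share called higher was 22.2%, against 10.8% of all genes, and 8.26% of all genes were called lower. A share of so few genes is coarse. Icam2, an adhesion molecule of endothelium and platelets, read 7.19, 7.37 and 7.55 in the Klf1-/- livers, against 6.76, 6.87 and 7.07 in the wildtype livers. Its groups did not overlap, and the change was 0.47 ± 0.11 (limma adjusted p = 0.0136). Pecam1, which joins neighbouring endothelial cells and is also carried by platelets and leukocytes, read 8.44, 8.59 and 8.69 in the Klf1-/- livers, against 8.06, 8.03 and 8.43 in the wildtype livers. The lowest Klf1-/- value lay just above the highest wildtype value, and the change was 0.40 ± 0.12 (limma adjusted p = 0.0332). The call of Icam2 was lost without Klf1-/- replicate 3 (adjusted p = 0.0613), and that of Pecam1 without Klf1-/- replicate 2 or 3 or wildtype replicate 1 or 2 (adjusted p of 0.0873 to 0.12). Under quantile normalization, 75th percentile centring or centring on housekeeping genes the call of Pecam1 was also lost, at adjusted p of 0.0678 to 0.0868.

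The other 7 junction genes were not called. Esam, a junction protein also found on platelets and stem cells, gave 0.37 ± 0.12, with groups that did not overlap, and Emcn, a sialomucin of venous and sinusoidal endothelium, gave 0.38 ± 0.16. Neither passed the test (limma adjusted p = 0.0605 and 0.128). Without wildtype replicate 3 they were at 0.46 and 0.59, calls that the choice of that liver favours. Esam was called in 7 of 21 alternatives, among them the fit without Klf1-/- replicate 1 (limma adjusted p = 0.0446), and Emcn in 3. Cldn5, the tight junction claudin of endothelium, read 7.84, 7.83 and 7.88 in the Klf1-/- livers, against 8.03, 8.05 and 8.27 in the wildtype livers. All Klf1-/- values lay below all wildtype values, and the change of -0.26 ± 0.09 was not called (limma adjusted p = 0.0585); it was called in 6 of 21 alternatives, among them quantile normalization (adjusted p = 0.0196) and the fit without wildtype replicate 1 (adjusted p = 0.0496). Gja4, a connexin of arteries, gave -0.33 ± 0.11 and was not called (limma adjusted p = 0.0606), except in 4 alternatives, among them the fit without Klf1-/- replicate 1 (adjusted p = 0.0276). Cdh5, the cadherin that defines endothelial junctions, gave 0.03 ± 0.12, with an interval of 0.851-fold to 1.23-fold. Clec14a and Robo4, surface proteins of vessel endothelium, gave -0.05 and 0.10.

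Of 6 scavenger and uptake genes of sinusoids 1 rose, Fcgr2b, and 5 were not called. This was 16.7%, against 10.8% of all genes called higher and 8.26% lower. Fcgr2b, the inhibitory Fc receptor that clears immune complexes in sinusoids, read 6.68, 6.95 and 6.87 in the Klf1-/- livers, against 6.67, 6.42 and 6.45 in the wildtype livers. The groups were separated by a narrow margin, and the change was 0.32 ± 0.10 (limma adjusted p = 0.0459). It was lost without Klf1-/- replicate 2 or 3 or wildtype replicate 2 or 3, at adjusted p of 0.119 to 0.166, and with 75th percentile or housekeeping centring.

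Lyve1, the hyaluronan receptor of sinusoids, lymphatics and some macrophages, read 9.35, 9.46 and 9.70 in the Klf1-/- livers, against 9.82, 9.72 and 10.41 in the wildtype livers. All 3 Klf1-/- values lay below the wildtype values. The change of -0.48 ± 0.16, the most negative of the 35, was not called (limma adjusted p = 0.0672), and over the fits that left out 1 array it ran from -0.61 without wildtype replicate 2, where it was called (adjusted p = 0.038), to -0.26 without wildtype replicate 3 (adjusted p = 0.148). Stab2, a hyaluronan and scavenger receptor of the same cells, read 9.59, 9.59 and 9.86 in the Klf1-/- livers, against 9.26, 9.29 and 9.78 in the wildtype livers. It gave 0.24 ± 0.14, not called with all arrays, and 0.40 without wildtype replicate 3, a call that the choice of that liver favours. Stab1, its relative, which macrophages also make, gave -0.01 ± 0.13. Gpr182, a chemokine-binding receptor of sinusoidal endothelium, gave -0.28 ± 0.19, with wildtype replicate 3 at 9.56 and the other wildtype livers at 8.77 and 8.76. Oit3, a secreted protein of liver sinusoids, gave 0.18 ± 0.15 and was not called. Without wildtype replicate 3 Oit3 was at 0.38, again a call that this choice favours.

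Of the 7 remaining genes, Egfl7 rose, or 14.3%, against 10.8% of all genes called higher. Egfl7, a matrix protein secreted by endothelium, read 9.39, 9.36 and 9.58 in the Klf1-/- livers, against 8.84, 8.98 and 9.25 in the wildtype livers. The groups did not overlap and the change was 0.42 ± 0.11 (limma adjusted p = 0.0239), a call lost without Klf1-/- replicate 3, wildtype replicate 1 or wildtype replicate 2 (adjusted p of 0.0671 to 0.0971) and under quantile normalization, 75th percentile or housekeeping centring (adjusted p of 0.0584 to 0.076). An endothelial microRNA gene, Mir126a, lies within Egfl7, and its mature product in RefSeq (GRCm38.p6) is given 5′ to 3′ with its seed, bases 2 to 8, in capitals.
mmu-miR-126a-3p, chr2:26591402-26591423, plus strand: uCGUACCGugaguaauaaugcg
The probe set named Mir126a, looked up after the values of Egfl7 were seen, was dim on all arrays, at 3.76 to 4.04 in the Klf1-/- livers and 3.65 to 3.90 in the wildtype livers, and was not called (limma adjusted p = 0.525). Rasip1, which keeps vessel lumens open, gave 0.27 ± 0.11 and was called without Klf1-/- replicate 2 (adjusted p = 0.0389). Mmrn2, a matrix protein, Ramp2, a subunit of the adrenomedullin receptor, Plvap, the diaphragm protein of fenestrated vessels, Nos3, the endothelial nitric oxide synthase, and Bmx ran from -0.18 to 0.03 and were not called.

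The genes that rose include some made by platelets, and markers of other blood cells moved with genotype. Of 14 listed megakaryocyte and platelet markers 10 had a single-gene probe set, and these 10 rose, with a median change of 0.75; their summed intensity was 29810 to 38430 in Klf1-/- livers and 20110 to 21250 in wildtype livers. Thbs1, a platelet matrix protein, rose by 1.26 ± 0.09 and Itga2b, the platelet integrin, by 1.05 ± 0.12 (limma adjusted p = 5.36e-06 and 0.000105). None of the 10 was near the lower quartile of all genes, 9 or 10 of them rose with any 1 array left out, and the part of these cells in the rise of Pecam1 and Icam2 was not tested. Among 14 macrophage markers 9 fell and 0 rose, with summed intensities of 3234 to 3791 in Klf1-/- livers and 4771 to 5914 in wildtype livers. The number that fell was 10 without wildtype replicate 1 and 6 without wildtype replicate 2 or 3. It was 7 without any 1 Klf1-/- array or with housekeeping centring. Over all genes 10.8% were called higher and 8.26% lower. Lgmn, a lysosomal protease, fell by 0.94 ± 0.105 and Cd5l, a protein secreted by macrophages, by 0.90 ± 0.13. Their part in the values of Lyve1, Stab1 and Fcgr2b was not tested. Of 12 stem and progenitor markers 5 rose and 0 fell, Slamf1, a surface marker of stem cells, by 1.32 ± 0.08; 2 rose without Klf1-/- replicate 2 or wildtype replicate 2, and 3 without either replicate 3 or with housekeeping centring. Their summed intensity was 8270 to 9194 in Klf1-/- livers and 7933 to 8254 in wildtype livers. Of 11 measured red cell precursor markers 9 fell and 0 rose. Of 14 stellate cell markers 1 fell, Lum, and of 14 hepatoblast markers 2 fell, Apoa1 and Fgb, neither of them called with quantile normalization or housekeeping centring. With 1 array left out these counts were 0 to 4 and 0 to 2, with 4 stellate markers lower without wildtype replicate 1 and 0 without Klf1-/- replicate 2.

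**Figure D3:**
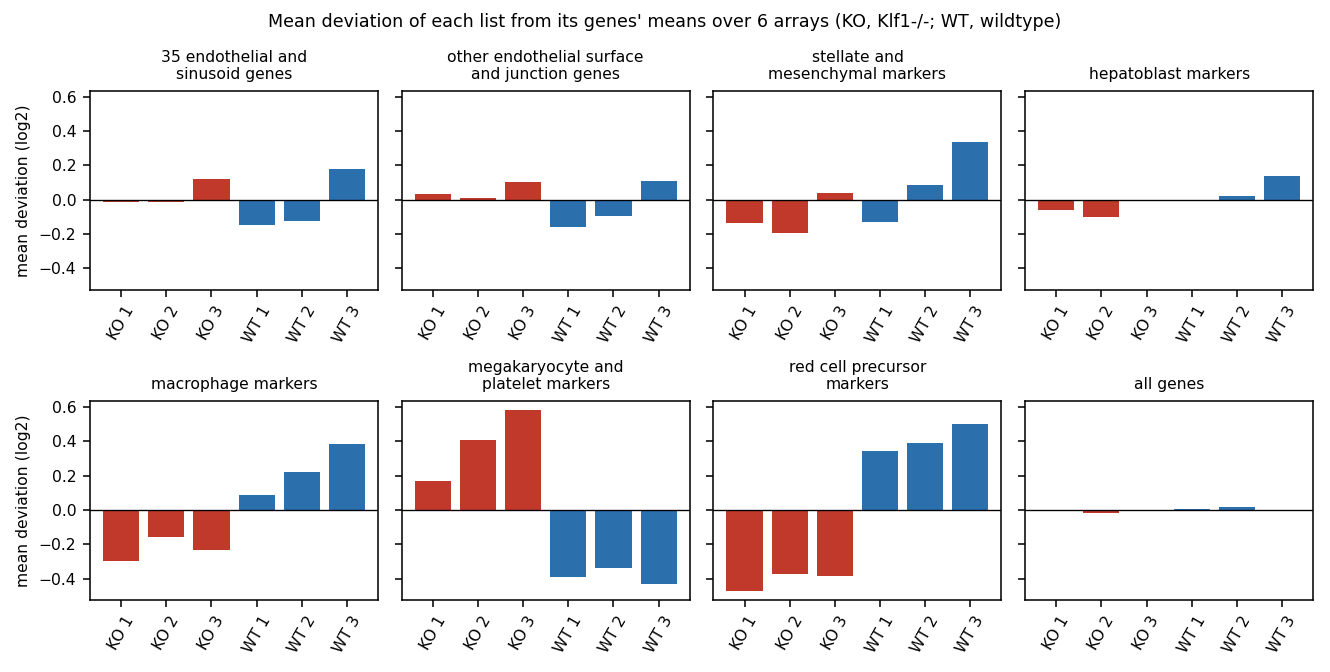
Mean deviation (log2) of each gene list from its own genes' means over the 6 arrays, for each Klf1-/- liver (red) and each wildtype liver (blue). The 35 endothelial and sinusoid genes run from -0.15 to 0.18, both in wildtype livers, while megakaryocyte markers are positive in all Klf1-/- livers and red cell and macrophage markers are positive in all wildtype livers.

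Within a genotype the endothelial genes varied together between arrays, so each was also read against the mean of the other 34 on the same array. This subtraction gave the 35 genes a median spread within groups of 0.12, against 0.18 without it (SD on the log2 scale), while that of all genes was 0.18, against 0.11 without it. After it 14 of the 35 had groups that did not overlap, 8 higher and 6 lower in Klf1-/- livers. The same subtraction separated 8.73% of all genes as higher and 13.3% as lower, and before it 6 of the 35 were higher and 2 lower without overlap, against 19% and 18.5% of all genes, 37.5% together. The 8 were Flt1, Icam2, Egfl7, Pecam1, Emcn, Esam, Kdr and Stab2, and the 6 were Eng, Nrp1, Cldn5, Gpr182, Gja4 and Lyve1. Differences ran from 0.18 for Stab2 to 0.46 for Flt1 and from -0.27 for Eng to -0.55 for Lyve1. These are values without a test, since the mean is taken over the described genes themselves. The subtraction narrowed the spread of the 35 and widened that of all genes, so the shares after it are not a like comparison.

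The hyaluronan receptors of sinusoids were also set against each other. Lyve1 minus Stab2 on the same array was -0.24, -0.13 and -0.16 in the Klf1-/- livers, against 0.55, 0.42 and 0.63 in the wildtype livers, a difference of -0.71. The sign of a single value depends on the probes and has no meaning, and the pair was chosen after its values were seen. It joins the most negative change of the 35, -0.48 for Lyve1, to a positive one, 0.24 for Stab2. Not all pairs of the 35 were read, and the few others that were read differed less. Flt1 minus Flt4 (0.35) and Flt1 minus Kdr (0.17) had groups that overlapped, while Icam2 minus Cdh5 (0.44) and Pecam1 minus Cdh5 (0.37) did not overlap. All arrays were also centred on the median deviation of the 35 genes, an alternative added after the data were seen. Lyve1 was then at -0.54 and Flt1 at 0.44. The fit called Lyve1 lower and none of the other 34, with 3.87% of all genes called lower and 2.85% higher. This centring is taken from the described genes themselves, Lyve1 among them, so the call is a description only. Without such centring and with all arrays, Lyve1 was not called (limma adjusted p = 0.0672).

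**Figure D4:**
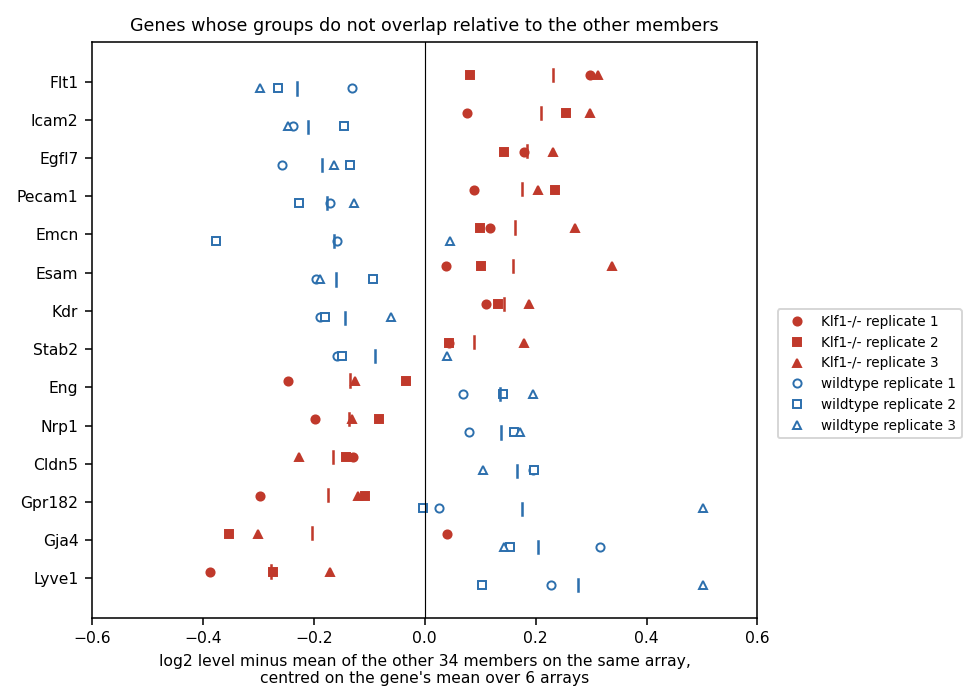
Level of 14 genes minus the mean of the other 34 on the same array (log2), centred on each gene's mean over 6 arrays. Filled red symbols are Klf1-/- livers, open blue symbols wildtype livers and short lines group means; 8 genes lie higher and 6 lower in all Klf1-/- livers, with Flt1 and Lyve1 at the ends.

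The ligands of these receptors were read from a list of 30 growth factors and morphogens that act on vessels. Vegfa, the VEGF ligand that low oxygen induces, read 9.93, 9.58 and 9.85 in the Klf1-/- livers, against 8.90, 9.13 and 9.31 in the wildtype livers. Its groups did not overlap and it rose by 0.67 ± 0.12, or 1.59-fold (limma adjusted p = 0.00303), also with each array left out. Adm, the peptide that signals through Ramp2 receptors, rose by 0.43 ± 0.08, and Pdgfb, which recruits mural cells and is stored in platelets, rose by 0.44 ± 0.08 (limma adjusted p = 0.0042 and 0.00382).

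Angpt1, the activating ligand of Tek, rose by 0.38 ± 0.11 (limma adjusted p = 0.0379), with no overlap between groups, but it was called in 1 of the 6 fits that left out an array, the one without Klf1-/- replicate 1. Vegfd, a ligand of Flt4, fell by 0.62 ± 0.15 (limma adjusted p = 0.0137; adjusted p = 0.0601 without wildtype replicate 3). Angpt4, named after its values were seen, fell by 0.29 ± 0.08 (limma adjusted p = 0.0285). The list thus had 4 genes that rose and 2 that fell out of 30, with a median change of -0.05. These were 13.3% and 6.67%, near the 10.8% and 8.26% of all genes. In the list 0 fell without wildtype replicate 3 and 1 without Klf1-/- replicate 2. The split depended on the scaling, with 3 higher and 4 lower under 75th percentile centring (median -0.12), 3 and 1 under housekeeping centring, and 5 and 1 under quantile normalization (median 0.00). Angpt1 is also in the stem and progenitor list. The other VEGF ligands Vegfb, Vegfc and Pgf and the context-dependent Tek ligand Angpt2 gave 0.13, -0.10, -0.25 and -0.20 and were not called.

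**Figure D5:**
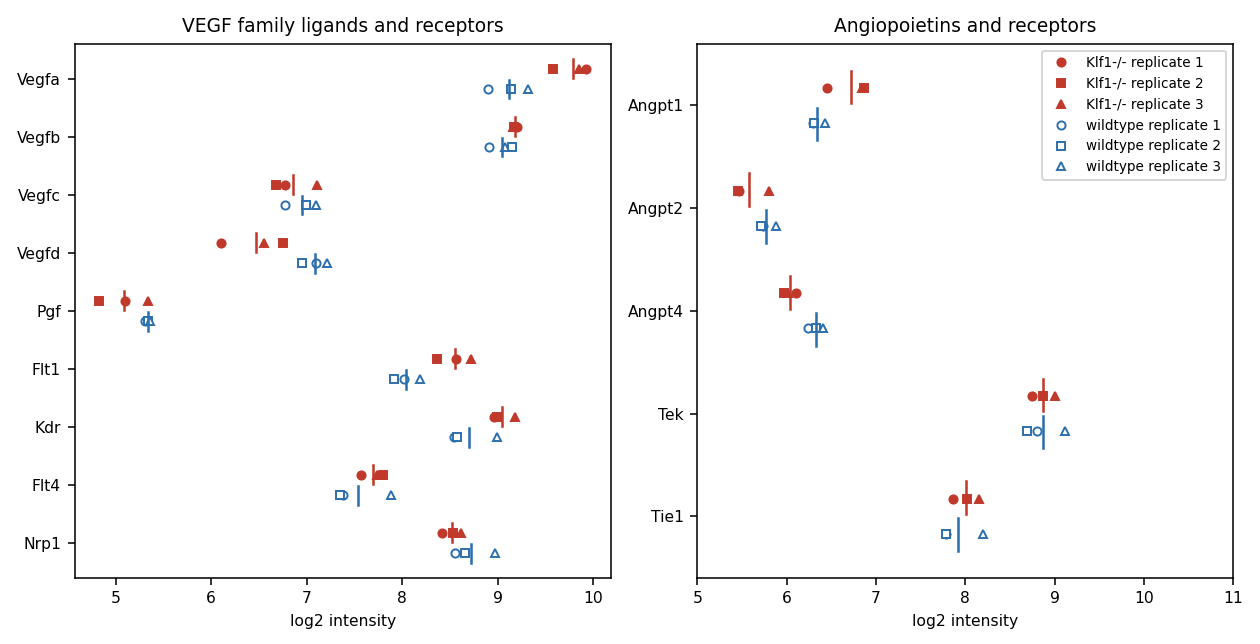
Log2 intensity of VEGF family ligands and receptors (left) and of angiopoietins and their receptors (right) on each array. Filled red symbols are Klf1-/- livers, open blue symbols wildtype livers and vertical lines group means; Vegfa, Angpt1 and Flt1 lie higher in all Klf1-/- livers and Tek and Tie1 overlap.

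Endothelial genes outside the 35 were called in both directions. Of 29 measured surface and junction genes 6 rose and 1 fell, with a median change of 0.03. These were 20.7% and 3.45%, against 10.8% and 8.26% of all genes. Without wildtype replicate 3, 10 rose, and without wildtype replicate 1, 3 fell. The median was -0.04 with 75th percentile centring. Tspan18, a tetraspanin, rose by 0.88 ± 0.10, Podxl, a sialomucin of endothelium and of blood progenitors and platelets, by 0.86 ± 0.08, Vwf, the clotting factor of endothelium and platelets, by 0.68 ± 0.12 and Cav1, the caveolar coat protein, by 0.48 ± 0.11. Vcam1, the adhesion molecule of endothelium and island macrophages and named after its values were seen, fell by 0.43 ± 0.10 (limma adjusted p = 0.0103).

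Among 30 transcription factors used by endothelium 7 rose and 3 fell, with a median change of 0.13. These were 23.3% and 10%, against 10.8% and 8.26% of all genes. Fli1, an ETS factor of endothelium and megakaryocytes, rose by 0.73 ± 0.10, Etv6, another ETS factor, by 0.69 ± 0.08 and Gata2, a factor of endothelium and blood progenitors, by 0.65 ± 0.11. Lmo2, a bridging factor of the same cells and of red cell precursors, fell by 1.01 ± 0.07. Tal1 and Hey2, named after their values were seen, fell by 0.33 and 0.38. Erg, an ETS factor of endothelium and stem cells, also named after its values were seen, gave 0.21 ± 0.11 and was not called (limma adjusted p = 0.188). The rises numbered 4 without Klf1-/- replicate 2, Klf1-/- replicate 3 or wildtype replicate 2. Of 20 further sinusoid genes 1 rose, Ehd3, a membrane traffic protein, by 0.63 ± 0.09, and 1 fell, Cd59a, a complement inhibitor that red cells also carry, by 0.74 ± 0.08. These were 5% each, below the 10.8% and 8.26% of all genes. Without wildtype replicate 2, 3 of these 20 fell, and 2 without wildtype replicate 1 or Klf1-/- replicate 2; 3 also fell with 75th percentile centring and 2 with quantile normalization. The median change was -0.11.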

How the data were processed

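RNA of 3 Klf1-/- and 3 wildtype fetal liver samples was hybridised to 1-colour Affymetrix Mouse Gene arrays. The deposited values are intensities. Affymetrix Power Tools 1.8.6 and RMA are named for them, per the submitters' processing notes, and no genome build was found in the labels. RMA equalises array distributions, so changes in total RNA per liver are not seen. Values were on a linear scale, and log2 was taken with no further normalization or filter.

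Probe sets were named through the platform annotation, 21640 of 34760 with 1 gene. A gene was read from its brightest single-gene probe set; the 35 genes had 1 each. The moderated test of limma 3.58.1 (R 4.3.3; lmFit, eBayes) compared genotypes for all 19937 genes, with Benjamini-Hochberg adjusted, 2-sided p-values. The fit was tested on simulated data. With 3 arrays against 3 an exact permutation test cannot go below p = 0.1, so none was used. Litters are not stated, and the p-values thus reflect only how much these 6 samples vary, which may be technical.

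The genes, lists and tests were chosen with earlier results of these data known. Named genes were the 35, Klf1, up to 4 called genes of largest change per other list (or the 2 of smallest p), and 6 VEGF and angiopoietin ligands; exceptions are marked. The 21 alternatives changed normalization, centring, filters, probe sets, log offset, variance model, weights, block, threshold or arrays.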

Additional observations from a re-analysis of the deposited data

How the results depend on the processing

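Across 21 alternatives no change of the 35 genes that was called under either setting changed sign; of 725 single values 653 kept their side of the threshold, 40 lost a call and 32 gained one, and the cause was not tested. The 5 genes called higher became 3 with quantile normalization, 2 with 75th percentile or housekeeping centring, 8 with array weights, 1 at adjusted p under 0.01, and 0 without moderation (Flt1 at adjusted p = 0.1), at 1.5-fold, or with centring on the 35 genes; of all genes 9.99%, 7.89%, 8.11%, 12.8%, 5.82%, 5.66%, 2.75% and 2.85% were higher in these. The 0 called lower became 2 with 75th percentile centring or either filter on dim genes, and 1 with quantile normalization, with log2(value + 16) or with centring on the 35 genes; of all genes 12.3%, 11.1%, 13.2%, 7.73%, 8.53% and 3.87% were lower in these. With 1 array left out, 1 (without Klf1-/- replicate 3) to 10 (without wildtype replicate 3) were higher and 0 to 1 lower. Of all genes 6.88% to 10.6% were higher and 5.15% to 8.24% lower in these fits, and 2409 to 3749 were called in place of 3809. That total was 2083 without moderation, 1995 at adjusted p under 0.01, 1039 with the 1.5-fold limit and 1341 with centring on the 35 genes. Deviations of same-numbered arrays correlated at -0.16, -0.22 and 0.18 over all genes, and at 0.12, -0.19 and 0.38 over the 35. With 3 arrays per group these values cannot decide whether the numbers pair the samples. Over all genes Klf1-/- and wildtype replicates 3 correlated best with each other, the others not with their own number. A replicate block called 7 of the 35 higher and 2 lower (Gja4 and Lyve1). Of all genes it called 10% higher and 7.5% lower, 3498 in all. The block also ended the call of Fcgr2b. Dim signal limits Bmx and Mir126a.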
